A study of Rattus norvegicus with 6 samples.

Results

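Reads of the miR-192, miR-194 and miR-215 family were examined in rat primary sertoli cells, the somatic cells that nourish germ cells in the seminiferous tubule, with and without 4-nonylphenol (4-NP), an alkylphenol with estrogen-like action. The members were every mature miRNA row of the deposited small RNA table whose name, without its arm suffix, was miR-192, miR-194 or miR-215. There were 5 such rows of 734 mature miRNA rows, 2 arms of rno-miR-192, 2 arms of rno-miR-194 and 1 row of rno-miR-215, called miR-192-5p, miR-192-3p, miR-194-5p, miR-194-3p and miR-215 here. The cells came from the testes of Sprague-Dawley rats aged 5 to 10 days and were enriched for sertoli cells by enzyme digestion and cultured with serum. There were 3 control samples (0 mM 4-NP) and 3 samples treated with 0.5 mM 4-NP, and small RNA of both groups was profiled at 24 h. No genotype or transgene separates the groups. Nothing in the labels or methods says whether replicates came from separate animals or cultures, so p-values measure only the spread between these samples, which may be technical.

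A miRNA gene is transcribed into a hairpin, from which a short duplex is cut. One strand, the guide, is kept by Argonaute and pairs with messenger RNAs mainly through its seed, bases 2 to 8, and the other, the passenger, is mostly degraded. miR-192 and miR-215 share a seed and so much of their predicted targets, while miR-194 has a different one but is made from the same primary transcripts. The family is known for high levels in liver, kidney and gut, where HNF factors drive it, and for its link to p53, which can raise it and whose inhibitor Mdm2 it can repress. It is not known as a marker of sertoli cells.

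The mature sequences, from RefSeq on the GRCr8 assembly, are printed 5′ to 3′ because the comparison within the family rests on them, with the seed in capitals. All 5 members were matched by name.
miR-192-5p: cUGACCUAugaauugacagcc
miR-215: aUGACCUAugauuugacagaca
miR-194-5p: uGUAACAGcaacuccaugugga
miR-192-3p: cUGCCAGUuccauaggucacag
miR-194-3p: cCAGUGGGgcugcuguuaucu
miR-192-5p, of 21 bases, and miR-215, of 22, were the 2 RefSeq rat miRNAs with the seed UGACCUA. Aligned from the 5′ end without gaps, 18 of 21 bases were the same, and the substitutions were C1A, A12U and C20A, with the base of miR-192-5p first and positions counted from 1 at the 5′ end. None of them falls in the seed. miR-194-5p and miR-194-3p each had a seed that no other RefSeq rat miRNA shared, and the seed of miR-192-3p was shared by miR-3084c-3p, which was not analysed here.

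These miRNAs come from 4 hairpins in 2 clusters. On chromosome 1 of GRCr8, Mir194-2 (chr1:212994024-212994108, + strand) and Mir192 (chr1:212994209-212994318, + strand) are 100 bases apart and lie between the genes Atg2a and Ehd1, within neither. On chromosome 13, Mir194-1 (chr13:99382716-99382798, + strand) and Mir215 (chr13:99382990-99383086, + strand) are 191 bases apart and lie within the span of Iars2, the mitochondrial isoleucyl-tRNA synthetase gene. The build behind the deposited counts is not given in the sources used here, so these positions describe RefSeq and not the alignment. miR-194-5p has the same sequence in both clusters, so its reads could not be divided between them. By their RefSeq positions, miR-192-5p comes from the chromosome 1 cluster alone and miR-215 from the chromosome 13 cluster alone.

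Both abundant members, miR-192-5p and miR-194-5p, were about 2-fold higher after 4-NP, while miR-215, which shares the seed of miR-192-5p, was at the same mean level in both groups. Levels are in CPM, counts per 1000000 mature miRNA reads of the same sample. These sums were 22291892 to 23426742 in the controls and 20023200 to 22130929 after 4-NP. In CPM, 1 read was worth 0.0427 to 0.0499, and the limit set by a count of 0, taken as 3 reads, was 0.128 to 0.150 CPM. Such limits and the exact Clopper-Pearson intervals below cover counting error only, as the reads were not collapsed to molecules. Intervals of fold changes rest on the standard error of the test and so also cover the spread between samples. Fold changes are from edgeR's two-sided quasi-likelihood test over all 549 mature miRNAs that passed its filter on low counts, with TMM scaling and Benjamini-Hochberg adjustment over those 549. Of the 5 members, 3 passed the filter: miR-192-5p, miR-194-5p and miR-215.

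miR-192-5p, the guide of its hairpin, had 896, 1109 and 1141 reads in control samples 1, 2 and 3, or 38.2, 48.0 and 51.2 CPM. After 4-NP it had 1990, 1954 and 1854 reads, or 89.9, 97.6 and 84.7 CPM. The lowest treated sample was 1.65 times the highest control, so the groups did not overlap. The control mean was 45.8 ± 6.74 CPM and the 4-NP mean 90.7 ± 6.49 CPM (SD, n = 3 each). edgeR put the rise at 0.96 ± 0.15 in log2 (standard error), with a 95% interval of 0.59 to 1.34 and an adjusted p of 0.00663, and all 3 treated samples showed it. Among the 734 mature rows it stood at rank 191, 188 and 179 by level in the controls and at 145, 137 and 145 after 4-NP.

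miR-194-5p, the guide of both miR-194 hairpins, varied more among the controls. Control samples 1, 2 and 3 held 1707, 1073 and 1295 reads, or 72.9, 46.5 and 58.1 CPM. The 4-NP samples held 2438, 2993 and 3067, or 110.2, 149 and 140.1 CPM. Control 1 was the highest control and 4-NP sample 1 the lowest treated sample, and they were still 1.51-fold apart. The control mean was 59.1 ± 13.2 CPM and the 4-NP mean 133 ± 20.5 CPM (SD, n = 3 each). In edgeR the rise was 1.14 ± 0.26 in log2 (standard error), with a 95% interval of 0.53 to 1.75 and an adjusted p of 0.0226, again in all 3 treated samples. This call was lost without control replicate 3 (adjusted p = 0.0590) and without 4-NP replicate 3 (adjusted p = 0.0579), where the log2 fold change was 1.14 and 1.09 in edgeR. Its rank by level ran from 156 to 191 in the controls and from 117 to 133 after 4-NP.

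Of all 549 tested miRNAs, 7.47% were higher at an adjusted p under 0.05, and miR-192-5p and miR-194-5p were 2 of these 41. By log2 fold change, miR-194-5p was 29th and miR-192-5p 46th of the 549. Groups that did not overlap, with the treated samples higher, were seen for 19.9% of the tested miRNAs. The study's rule asks for a fold change over 2 with an unadjusted p under 0.05, and 5.83% of the tested miRNAs met it upward. miR-194-5p, at 2.21-fold, met it, and miR-192-5p, at 1.95-fold, fell just short of the fold. Under 5 of the 12 alternatives (DESeq2, RLE scaling, no filter on low counts, and without control replicate 3 or 4-NP replicate 1) miR-192-5p met the rule, so its side of this threshold depends on the processing.

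miR-215 was rare. Control samples held 15, 23 and 32 of its reads and 4-NP samples 21, 22 and 22, so all 3 treated samples lay within the range of the controls. The means were 1.02 ± 0.398 and 1.02 ± 0.0757 CPM (SD, n = 3 each). In edgeR the log2 difference was -0.03 ± 0.35 (standard error), with a 95% interval of -0.88 to 0.82 and an adjusted p of 0.972. The interval runs from 0.544-fold to 1.77-fold, so any change within that range remains possible. Its width reflects both the few reads and the spread between samples. It stood at rank 447 to 504 of the 734 rows.

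**Figure D1:**
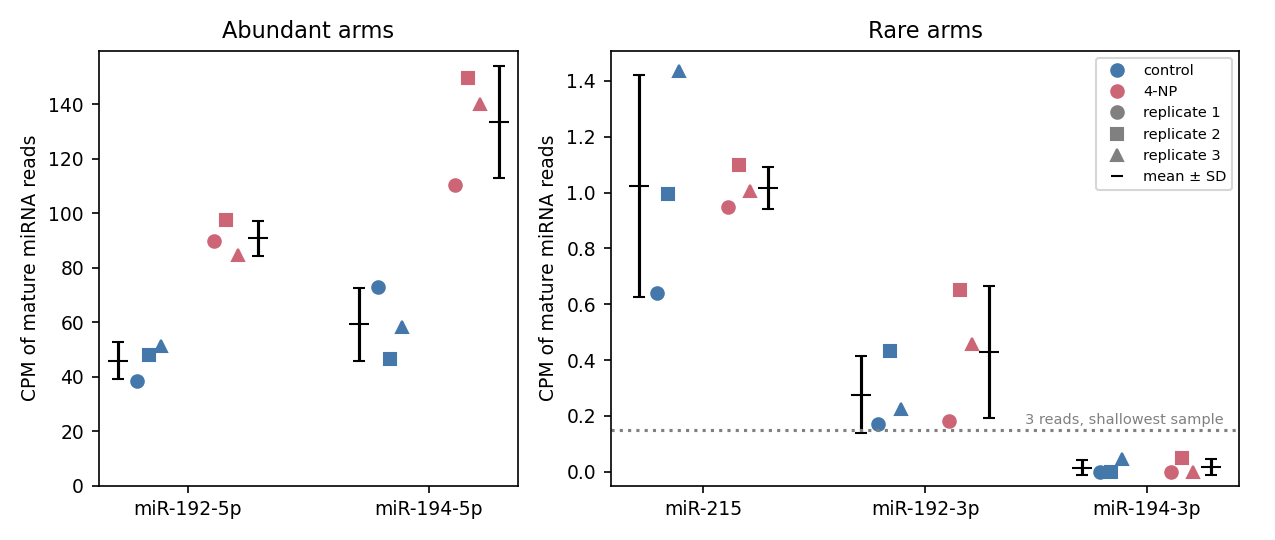
Level of each of the 5 members in each sample, in CPM of mature miRNA reads, with miR-192-5p and miR-194-5p on the left axis and the 3 rare arms on the right axis. Points are samples, black bars are the mean ± SD of 3 samples, and the dotted line is the limit of 3 reads in 4-NP sample 2; miR-192-5p and miR-194-5p have every treated sample above every control, and the 3 rare arms overlap.

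The rise of miR-192-5p and the level of miR-215 were compared within each sample as a ratio, a comparison chosen after the values were seen. There were 0.0167, 0.0207 and 0.0280 miR-215 reads per miR-192-5p read in the controls and 0.0106, 0.0113 and 0.0119 after 4-NP. The ratio was lower in all 3 treated samples than in any control. In log2 the difference was -0.93 (exact two-sided permutation test over samples, p = 0.1, the smallest that 3 against 3 allow, and 0.3 after Benjamini-Hochberg adjustment over the 3 ratios tested). As a share of the mature miRNA reads with the seed UGACCUA, miR-215 made up 1.65, 2.03 and 2.73% in the controls. The exact Clopper-Pearson 95% intervals together span 0.924 to 3.83%. After 4-NP the share was 1.04, 1.11 and 1.17%, with intervals that span 0.648 to 1.77%. Nearly all mature reads with this seed were thus miR-192-5p in both groups. The share leaves out the precursor family reads described below, which are not divided between miR-192 and miR-215.

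The ratio of miR-194-5p to miR-192-5p overlapped between the groups. Only Mir194-2 lies in the chromosome 1 cluster with Mir192, and miR-194-5p reads can also come from Mir194-1 on chromosome 13. The ratio was 1.91, 0.968 and 1.13 in the controls and 1.23, 1.53 and 1.65 after 4-NP. Control 1 stood apart, with the highest miR-194-5p and the lowest miR-192-5p of the controls. The log2 difference was 0.19 (exact two-sided permutation test, p = 0.6, adjusted 0.6), with SDs of 0.51 in the controls and 0.23 after 4-NP, and it ran from -0.011 without control replicate 2, through 0.099 without 4-NP replicate 3, to 0.48 without control replicate 1. Across the 6 samples, Pearson's r of log2(CPM + 1) was 0.85 between miR-192-5p and miR-194-5p, 0.28 between miR-192-5p and miR-215 and -0.07 between miR-194-5p and miR-215. These are descriptions over 6 samples that fall into the study's groups.

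**Figure D2:**
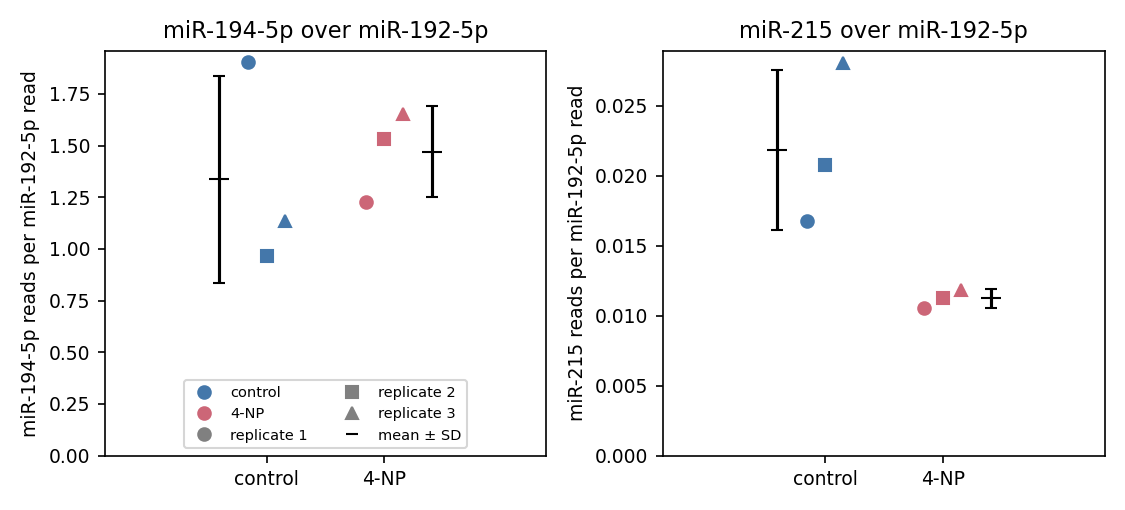
Reads of miR-194-5p (left) and of miR-215 (right) per read of miR-192-5p in each of the 6 samples, with black bars for the mean ± SD of 3 samples. The left ratio overlaps between control and 4-NP samples, with control 1 highest at 1.91, and the right ratio is lower in the 3 treated samples, at 0.0106 to 0.0119.

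The passenger arms were close to the limit of detection. Control samples held 4, 10 and 5 reads of miR-192-3p and 4-NP samples 4, 13 and 10, and no difference was detectable. It made up 0.600% of the mature miR-192 reads over the controls (19 of 3165, exact Clopper-Pearson 95% interval 0.362 to 0.936%). Over the treated samples it made up 0.464% (27 of 5825, interval 0.306 to 0.674%). The log2 ratio of the 3p arm to the 5p arm, with 0.5 read added to each, differed by -0.46 between the groups (exact two-sided permutation test, p = 0.6, adjusted 0.6). The difference was 0.032 without 4-NP replicate 1 and -0.14 without control replicate 2, so it has no settled direction. miR-194-3p had 1 read in control 3, 1 read in 4-NP sample 2 and 0 in the other 4 samples, which allows up to 0.128 to 0.137 CPM in those 4. In all 6 samples together it was 2 of 12575 mature miR-194 reads (0.0159%, exact interval 0.00193 to 0.0574%). RefSeq places miR-194-3p on Mir194-2 alone, while miR-194-5p reads can also come from Mir194-1, so this is not the share of 1 hairpin. The precursor family reads described below, whose arm is not given, are left out of these shares and their intervals. Of the reads of all 5 members, miR-192-5p and miR-194-5p together made up 98.5 to 99.3% in the controls and 99.3 to 99.4% after 4-NP, and most of the rest was miR-215.

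In order of level, miR-194-5p and miR-192-5p came first, then miR-215, miR-192-3p and miR-194-3p. miR-194-5p and miR-192-5p overlapped in the controls and did not overlap after 4-NP, and miR-215 was above miR-192-3p in every sample. CPM is not divided by length here, as these miRNAs are 21 or 22 bases long, and levels of different sequences also carry the ligation and amplification of each, which was not measured. Together the 5 members had 95.9 to 112 CPM in the controls and 201 to 249 CPM after 4-NP, or 0.00959 to 0.0112% and 0.0201 to 0.0249% of the mature miRNA reads.

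The table also counts reads that the authors assigned to precursor families, which the test of the mature miRNAs did not use. These are described without a test. The small RNA was cut from a gel at sizes well below the 83 to 110 bases of the RefSeq hairpins. The precursor family rows therefore count short reads and do not measure intact precursors. Control samples held 383, 626 and 529 reads of the precursor family shared by miR-192 and miR-215, and 4-NP samples 936, 908 and 1140. On the CPM scale of the mature miRNAs this was 22.4 ± 5.50 and 46.6 ± 5.00 (SD, n = 3 each), a ratio of the means of 2.08. For the miR-194 precursor family the controls held 76, 57 and 75 reads and the 4-NP samples 165, 157 and 197, or 3.03 ± 0.487 and 8.10 ± 0.802 CPM (SD, n = 3 each), a ratio of 2.68. In both families every treated sample was above every control. Over the 91 of 177 precursor families averaging 10 or more reads a sample, the median ratio was 1.01. Of these 91, 90.1% had a lower ratio than the miR-192 and miR-215 family and 95.6% a lower ratio than the miR-194 family. How many of the 91 had groups that did not overlap was not counted. The shared precursor reads were 42.7 to 56.4% of the miR-192-5p reads in the controls and 46.5 to 61.5% after 4-NP, and for miR-194 they were 4.45 to 5.79% and 5.25 to 6.77% of the miR-194-5p reads. How reads were assigned to a precursor family rather than a mature miRNA is not given in the sources used here, and the family row does not part miR-192 from miR-215.

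**Figure D3:**
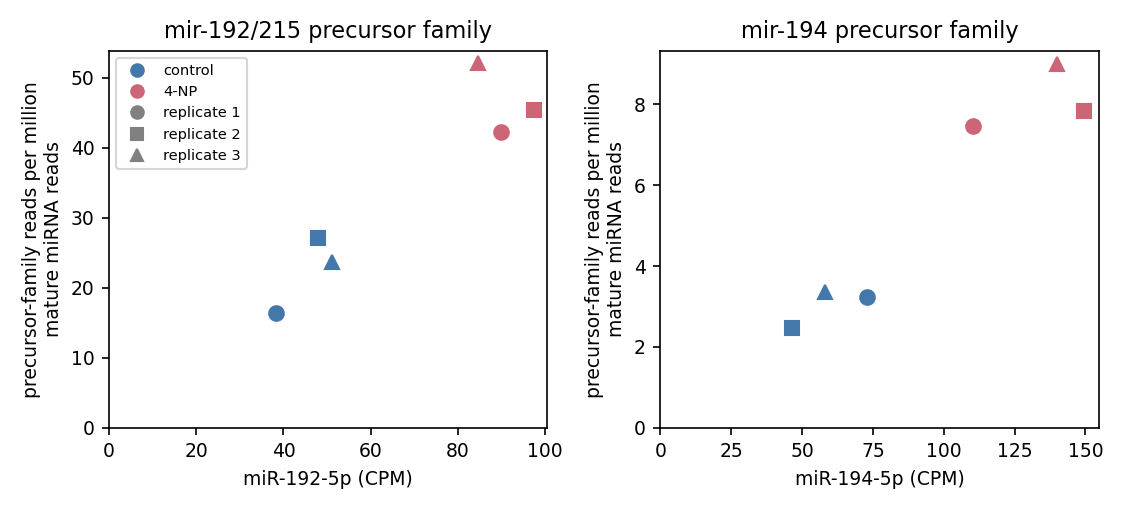
Reads assigned to the precursor family of miR-192 and miR-215 (left) and to that of miR-194 (right), on the CPM scale of the mature miRNAs, against the CPM of miR-192-5p and miR-194-5p in the same sample. Each point is 1 of 6 samples, and the family reads are short reads, not intact precursors. The 3 treated samples lie above and to the right of the 3 controls in both panels.

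Since the family is linked to p53, other miRNAs described as p53-linked were read from the same fit. Of 11 names, 10 were analysed (all but miR-605) and 17 arms were tested. Of these 17, 6 rose and 2 fell at an adjusted p under 0.05, and 9 did not pass, beside 7.47% higher and 12.8% lower among all tested miRNAs. The median log2 fold change was 0.16, against -0.02 over all 549. All 6 that rose were arms of miR-34a, miR-34b and miR-34c, the best known direct p53 targets among miRNAs. Their log2 fold changes ran from 0.65 (miR-34a-5p, adjusted p = 0.00232 from edgeR) to 1.36 (miR-34c-3p, adjusted p = 0.000563). miR-34a-3p rose by 1.08 in log2, miR-34b-3p by 0.99, miR-34b-5p by 1.11 and miR-34c-5p by 1.11. None of these 6 overlapped between the groups, beside 19.9% of all tested miRNAs with every treated sample above every control. They are both arms of each of these miRNAs, so they are not 6 separate genes.

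The 2 that fell were arms of the miR-143 and miR-145 transcript, which marks smooth muscle and other mesenchymal cells. In edgeR, miR-145-3p stood at -1.88 in log2 (adjusted p = 0.000278) and miR-143-3p at -0.50 (adjusted p = 0.0177). The list as a whole therefore held changes in both directions. Values of the remaining 9 arms lay between -0.66 (miR-143-5p, adjusted p = 0.0749 in edgeR) and 0.37 (miR-16-5p, adjusted p = 0.0977).

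**Figure D4:**
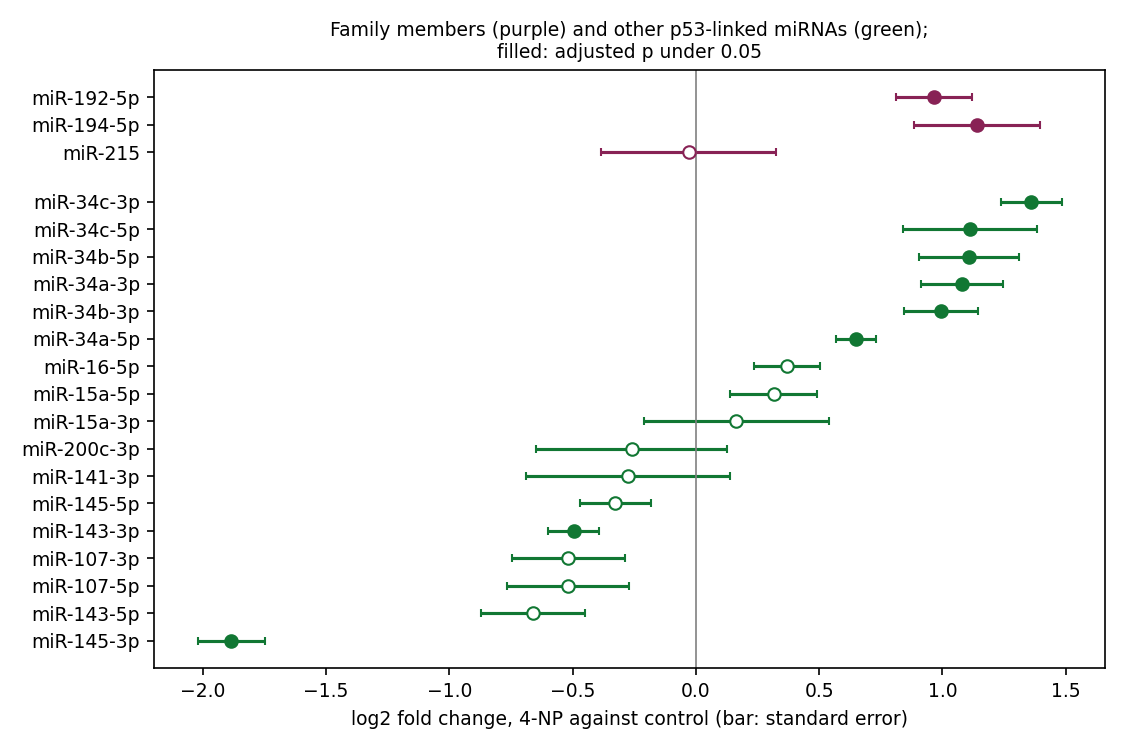
log2 fold change, 4-NP against control, of the 3 tested members (purple) and of the 17 tested arms of other p53-linked miRNAs (green). Bars are standard errors and filled points have an adjusted p under 0.05 from edgeR; miR-192-5p and miR-194-5p lie at 0.96 and 1.14, within the range of 0.65 to 1.36 of the 6 miR-34 arms.

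The second list held miRNAs of the epithelia, liver and gut, where the family is usually abundant. All 12 names were analysed and 12 arms were tested, of which 1 rose, 5 fell and 6 did not pass, beside 7.47% higher and 12.8% lower among all tested miRNAs. The 5 that fell were miR-203b-5p (log2 fold change -2.14, adjusted p = 0.00138 from edgeR), miR-203a-5p (-1.83), miR-200a-3p (-1.14), miR-429 (-1.12) and miR-203a-3p (-0.89), all known from epithelial cells. The 1 that rose was miR-31b, by 0.64 in log2 (adjusted p = 0.0405 in edgeR), a call that was lost without control replicate 1, 2 or 3 or 4-NP replicate 3. When control replicate 1, control replicate 2 or 4-NP replicate 3 was left out, 3 arms fell. The median log2 fold change of the 12 was -0.59, against -0.02 over all 549. This median weighs rare and abundant arms alike, and the arms that fell had control means of 15.8 CPM or less. The summed level of the list went the other way, from 2804 to 3048 CPM in the controls to 3371 to 3637 CPM after 4-NP. Its most abundant arm was miR-31a-5p, with means of 1747 and 2352 CPM (log2 fold change 0.41, adjusted p = 0.0547 in edgeR).

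Markers of other cells were read because the family is abundant in liver and other organs, and because in bulk samples fewer cells of a type and less RNA per cell cannot be told apart. Control samples held 1, 3 and 12 reads of miR-122-5p, the defining miRNA of liver, and 4-NP samples 6, 434 and 31 (log2 fold change 4.98, adjusted p = 0.0923 in edgeR), most of them in 4-NP sample 2. Without that sample the log2 fold change was 1.00 for miR-192-5p (adjusted p = 0.0186 in edgeR) and 1.15 for miR-194-5p (adjusted p = 0.0471). The 4 rows of the erythroid markers miR-451, miR-144 and miR-486 summed to 11.0 to 40.7 CPM in the controls and 59.3 to 631 CPM after 4-NP. Of their 2 tested rows 1 was higher, beside 7.47% higher among all tested miRNAs. The higher row was miR-451-5p, with 1300, 6107 and 13743 reads in 4-NP samples 1, 2 and 3. Without 4-NP sample 3 the log2 fold change was 0.99 for miR-192-5p (adjusted p = 0.0214 in edgeR) and 1.09 for miR-194-5p (adjusted p = 0.0579). The part of liver and erythroid RNA in the rise of miR-192-5p and miR-194-5p was not tested.

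Other marker sums went down or overlapped. The counts of rows below stand beside 12.8% lower and 7.47% higher among all tested miRNAs. The 16 rows of germ cell markers (miR-34c, miR-449a, miR-741, miR-743a, miR-743b, miR-871, miR-880 and miR-883) summed to 636 to 769 CPM in the controls and 196 to 231 CPM after 4-NP, with 6 of 11 tested rows lower and 2 higher, the 2 being the miR-34c arms that the p53-linked list also holds. The endothelial marker miR-126a went from 6325 to 7615 CPM in the controls to 3234 to 3805 CPM after 4-NP, with both arms lower. Epithelial markers (miR-200a, miR-200b, miR-200c, miR-141 and miR-429) had 10.7 to 13.03 CPM in the controls and 6.34 to 7.05 CPM after 4-NP, with 2 of 5 tested rows lower. The epithelial, liver and gut list also holds all of these markers, and the 2 lower rows, miR-200a-3p and miR-429, are the calls given there. The p53-linked list also holds miR-200c and miR-141. The myeloid and lymphoid markers miR-223, miR-142 and miR-150 (18.2 to 22.4 against 17.3 to 36.9 CPM) and the striated muscle markers miR-1, miR-133a, miR-133b and miR-206 (14.5 to 20.0 against 13.4 to 15.4 CPM) overlapped, with no tested row past the threshold. miR-202, the miRNA used here to mark sertoli cells, had 807 to 1195 CPM in the controls and 698 to 796 CPM after 4-NP, and neither of its 2 arms passed the test. In each of the 6 samples this was above the summed level of the miR-192, miR-194 and miR-215 family.

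The tested miRNAs whose levels over the 6 samples were most like those of each guide were found by Pearson's r of log2(CPM + 1). Such an r does not measure the size of a change. For miR-192-5p they were let-7d-5p (0.99), miR-1249 (0.98), miR-30d-5p (0.98), miR-320-3p (0.98) and miR-34c-3p (0.97). Of these, let-7d-5p was not called (log2 fold change 0.28, adjusted p = 0.126 in edgeR), and the others were. For miR-194-5p they were miR-16-5p (0.98), miR-3547 (0.96), the authors' predicted novel_mir3 (0.96) and novel_mir56 (0.95), and miR-195-5p (0.95). Of these, miR-16-5p, miR-3547 and miR-195-5p were not called (log2 fold changes 0.37, 1.32 and 0.71), and the predicted miRNAs were called at 5.08 and 6.94 in log2. The r of miR-192-5p was above 0.95 with 21 of the other 548 miRNAs, that of miR-194-5p with 5 and that of miR-215 with 0. All points share the split into control and 4-NP samples, so any miRNA that differs between the groups takes part in such a ranking.

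**Figure D5:**
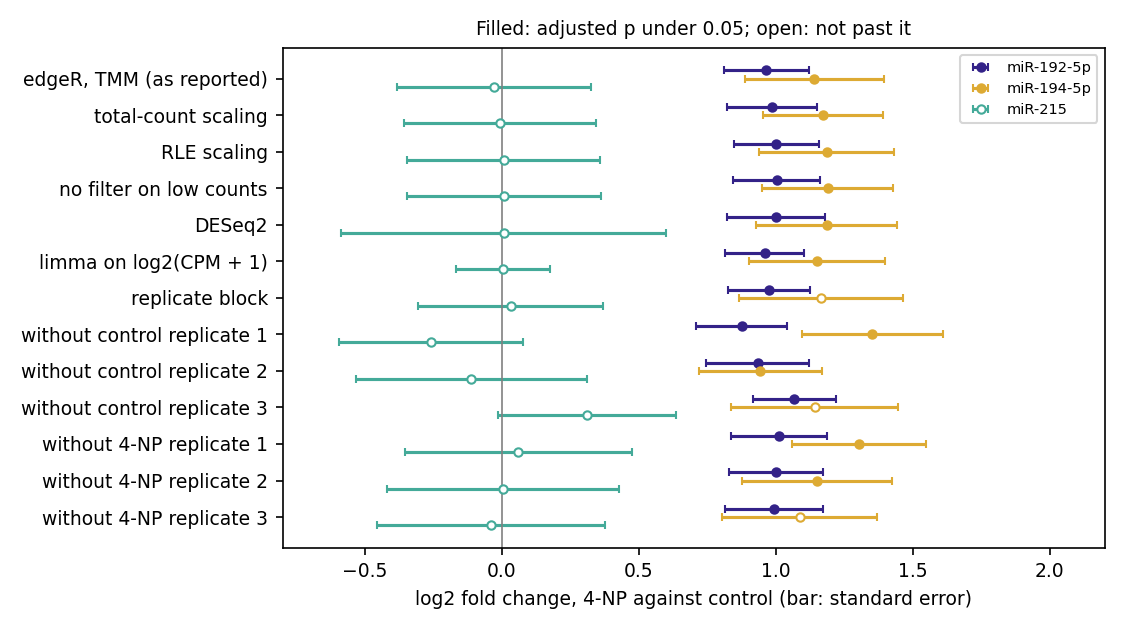
log2 fold change, 4-NP against control, of miR-192-5p, miR-194-5p and miR-215 under the reported analysis and 12 alternatives, with standard errors. Filled points have an adjusted p under 0.05; miR-192-5p is filled in all 13, miR-194-5p is open with a replicate block and without control replicate 3 or 4-NP replicate 3, and miR-215 is open in all 13.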

How the data were processed

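Small RNA of 18-30 nt was cut from a gel and sequenced from adapters that held unique molecular identifiers. The authors checked reads with FastQC and deposited 1 table of raw read counts per small RNA and sample, without normalization. HISAT2 and DESeq2 are named in the submitters' processing notes without role or version. The miRNA database, genome build and counting rule are not given in the sources used here. The table's 6 other columns, named for the identifiers, were not used. 4 rows that name no gene were left out: repeats (0.558 to 1.13% of each sample's reads), intergenic sequence (0.431 to 0.718%), introns (0.791 to 1.75%) and exons (1.72 to 2.46%).

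Treated columns were matched to samples by number. Levels (CPM) are counts scaled to the sum of mature reads. Tests used edgeR 4.0.16 (R 4.3.3): filterByExpr, TMM factors (0.947 to 1.09) and the quasi-likelihood F test, with common dispersion 0.118. Standard errors came from the fold change and F, and 95% intervals from the t quantile at 6.54 degrees of freedom. Alternatives were total-count and RLE scaling, no filter, DESeq2 1.42.0, limma 3.58.1 on log2(CPM + 1), a replicate block and omission of each sample. The procedure was also run on counts simulated with the common dispersion for every miRNA. Such counts lack differences in spread among miRNAs, so error rates in these samples were not measured.

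The members, lists and tests were chosen with earlier results of these data known. Every member is named. Of the lists, called arms are named, and for each guide the 5 most alike miRNAs.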

Additional observations from a re-analysis of the deposited data

How the results depend on the processing

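miR-192-5p kept its direction and an adjusted p under 0.05 under all 12 alternatives (adjusted p of 3.02e-07 in DESeq2 to 0.0268 with a replicate block in edgeR), and its log2 fold change was 0.88 to 1.07 when each sample was left out. miR-194-5p kept its direction in all 12 and passed in 9. With a replicate block its log2 fold change was 1.17 and its adjusted p 0.0795 in edgeR, and with each sample left out the fold change was 0.94 to 1.35 in log2. miR-215 passed in none. Its log2 fold change, -0.03 as reported, changed sign in DESeq2 (0.0065), with RLE scaling (0.0068), in limma (0.0036), with no filter on low counts (0.0071) and with a replicate block (0.033), and was -0.26 to 0.31 with each sample left out. No scaling moved the median log2 fold change of all miRNAs by over 0.1.

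The replicate numbers were not found to pair the samples. Deviations of same-numbered samples from their group means had correlations of -0.301, -0.263 and -0.0207, and no sample correlated best with its own number. With the block, 26 miRNAs were higher and 56 lower in edgeR, against 41 and 70, and 1 p53-linked arm was lower instead of 2. With each sample left out, 29 to 42 were higher and 51 to 66 lower, and of the p53-linked arms 5 to 6 were higher and 2 lower.

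Of the epithelial, liver and gut arms, 3 were higher in DESeq2 and 2 with RLE scaling, with total-count scaling and with no filter. With each sample left out, 0 to 2 were higher and 3 to 5 lower. The log2 difference of the ratio of miR-194-5p to miR-192-5p was -0.011 to 0.48, that of miR-192-3p to miR-192-5p -0.77 to 0.032 and that of miR-215 to miR-192-5p -1.10 to -0.74 with each sample left out. Each stayed within 1 SD with 1 read added in place of 0.5. The cause of these shifts was not tested. Depth limits miR-215, miR-192-3p and miR-194-3p, which had at most 32, 13 and 1 reads in any sample.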
